A study of Rattus norvegicus with 6 samples.

Results

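Sensory neurons of the dorsal root ganglion (DRG) acquire and keep their identity under a small set of transcription factors, and 9 of these were followed after injury of the sciatic nerve in the rat. They were the LIM homeodomain factors Isl1 and Isl2, the POU factors Pou4f1, Pou4f2 and Pou4f3, the nociceptor regulators Runx1 and Prdm12, and the homeodomain factors Tlx3 and Prrxl1. Each was taken by its gene symbol from a deposited table of 43350 gene rows, a protein-coding row being preferred, and otherwise the one with most counts. The symbol Prrxl1 was carried by no row, and the row named Drgx was used for it, since the RefSeq gene table of GRCr8 lists Prrxl1 as a synonym of Drgx. Thus 9 of 9 factors were measured.

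The study asked how gene expression in the DRG differs between rats with chronic constriction injury (CCI) and sham-operated rats. Male Sprague-Dawley rats received loose ligatures around the left sciatic nerve in the CCI group, whereas in the Sham group the nerve was exposed in the same manner and left untied. On day 11 the DRG of lumbar levels 4 to 6 on the operated side were taken for RNA sequencing after removal of ribosomal RNA, with 3 rats per group and 1 rat per sample. The labels give no age and no treatment for the Sham rats and mention a pooled sample, and the description of the surgery and of single rats follows the methods of the study. Allocation to the operations was random, after behavioral testing only rats that behaved as their group should were kept, and those sequenced were drawn from them at random, so that the CCI group holds animals with pain behavior. The ligated nerve supplies only a part of the neurons in these ganglia, and whole ganglia also contain satellite glia, Schwann cells, macrophages, fibroblasts and vessels. In such bulk tissue, fewer cells of a type and less RNA per cell cannot be told apart.

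These factors act in sequence and in combination during development. Isl1 and Pou4f1 are present in nearly all newly formed sensory neurons, where they end the program of neurogenesis and switch on genes of the sensory lineage. Prdm12 is required for the formation of nociceptors, Runx1 directs many of them toward the nonpeptidergic fate, and Tlx3 and Drgx take part in the differentiation of nociceptive neurons and of their targets in the dorsal horn. Most of these genes are still transcribed in the adult ganglion.

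The deposited counts summed to 81131861, 80479671 and 75423546 reads in CCI 1, 2 and 3 and to 87615743, 80046488 and 83695350 in Sham 1, 2 and 3. Over the 9 factors and 6 libraries the counts lay between 403 (Tlx3 in CCI 3) and 7882 (Drgx in Sham 1). The count of 403 has an exact Poisson interval at 95% of 365 to 444, which covers counting error only and lies below the next lowest count of that gene, 596 in Sham 2. Levels are given as FPKM, in which counts are divided by transcript length and by the total of the library. A comparison of genes by FPKM rests on the length assigned to each. Differences are given as log2 fold changes of CCI over Sham from edgeR's quasi-likelihood fit to the counts. Rows entered the fit if their FPKM averaged 0.5 or more, which held for 26663 rows and for 9 of 9 factors.

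The ganglia had the expression of sensory neurons. The most abundant of 14 pan-neuronal genes was Tubb3, a neuronal tubulin, with 1388 ± 89.1 FPKM in CCI and 1109 ± 81.9 in Sham (SD, n = 3). Isl1 also marks sympathetic and motor neurons, and most of the genes that define those neurons were at or near 0. Hand2 of the sympathetic list and Mnx1 and Slc18a3 of the motor neuron list had no read in any library. Of the 7 sympathetic markers 0 passed the filter, and their summed level was 0.46, 0.64 and 0.63 FPKM in CCI 1, 2 and 3 and 0.87, 0.72 and 0.60 in Sham 1, 2 and 3, with Th the most abundant. Of the 4 motor neuron markers only Slc5a7 passed it, with a mean of 1.55 FPKM, and the summed level of the list lay between 1.37 and 1.78 FPKM.

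Of the 9 factors, 0 were called at the limits used in the study, an unadjusted edgeR p under 0.05 together with a change of 0.58 or more on the log2 scale, and 0 were called at a Benjamini-Hochberg adjusted p under 0.05. At those limits 1022 of 26663 rows (3.83%) were called, 686 (2.57%) higher and 336 (1.26%) lower in CCI. At the adjusted p 25 rows (0.0938%) were called, 17 (0.0638%) higher and 8 (0.0300%) lower. At such shares fewer than 1 call would fall among 9 genes, so a count of 0 does not set the factors apart from other rows. The number of factors with an unadjusted p under 0.05 was also 0, against 10.7% of all rows, and DESeq2 and limma likewise gave 0 for each of the 3 counts. The unadjusted p-values ran from 0.0926 to 0.946, and the adjusted ones from 0.567 to 0.991.

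The size of a change that the data allow is given by the intervals. For 7 of 9 factors the 95% interval of the log2 fold change lay inside -0.58 to 0.58, whereas this held for 47.0% of all tested rows. The exceptions were Pou4f1, whose interval reached 0.65, and Drgx, whose interval reached -0.63. The median width of the interval was 0.54 for the factors and 0.87 for all rows. These rows were not matched to the factors in level or type. They reach down to a mean of 0.5 FPKM, and 13712 of the 26663 are protein-coding. The comparison therefore does not show that the factors were steadier than genes of like level. Log2 fold changes were negative for 7 and positive for 2 of the factors, with a median of -0.10 beside 0.01 for all rows, where 48.9% were negative.

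**Figure D1:**
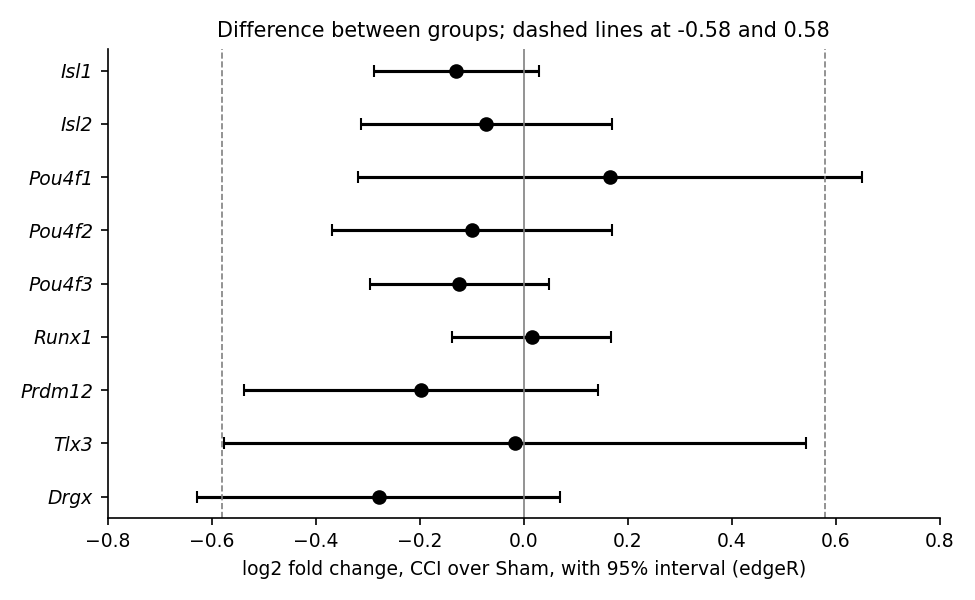
Log2 fold change of each factor in CCI over Sham (horizontal axis) from edgeR, with its 95% interval (3 rats per group). The solid line marks 0 and the dashed lines mark -0.58 and 0.58. Every interval includes 0, and those of Pou4f1 and Drgx cross a dashed line.

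Isl1 is a LIM homeodomain factor shared by nearly all sensory neurons. Its row lies on chromosome 2 from 48487736 to 48498259, on the minus strand, in the coordinates of the deposited table, whose genome the study calls V101 without naming the assembly. Its level was 7.24, 7.12 and 7.62 FPKM in CCI 1, 2 and 3 and 7.61, 7.76 and 8.41 in Sham 1, 2 and 3. CCI 1 and 2 were lower than every Sham library, while CCI 3 was level with Sham 1, so that the groups touched. The log2 fold change was -0.13 ± 0.07 (SE, 95% interval -0.29 to 0.03), with an adjusted p of 0.567 by edgeR and the lowest unadjusted p of the 9 factors. Without Sham 3 it was -0.08. In linear terms the interval ran from 0.818 to 1.02 of the Sham level.

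Isl2, the paralog of Isl1, lies on chromosome 8 from 60116537 to 60125248 on the plus strand. It measured 4.73, 5.62 and 5.48 FPKM in CCI 1, 2 and 3 and 5.22, 6.10 and 5.12 in Sham 1, 2 and 3. The groups overlapped widely, with the lowest value in CCI 1 and the highest in Sham 2. Its log2 fold change was -0.07 ± 0.10 (interval -0.31 to 0.17, edgeR adjusted p = 0.871), and it changed sign to 0.02 when Sham 2 was left out.

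The promoter of Isl2 is shown because it was the only one among the factors to match TGACGTCA or TGANTCA. Protein families that include Atf3 and Jun bind these letters, and the transcripts of Atf3 and Jun rose after CCI as described further on. RefSeq promoter windows of 300 bases (250 before to 50 after the start of the gene, build GRCr8) were present for 9 of 9 factors, 10 windows in all, because Prdm12 has 2. Both strands were searched for TGACGTCA (the full cAMP response element), TGANTCA (the AP-1 element), TAAT (the core recognised by many homeodomains, read as ATTA on the other strand) and TGTGGT (the core bound by Runx proteins). None of these motifs contains another. TGACGTCA occurred in 1 of the 10 windows, that of Isl2, and in 1.83% of 33469 promoters in the table. TGANTCA and TGTGGT, found in 7.33% and 17.3% of all promoters, occurred in 0 of the 10 windows. In the window of Isl2, at chr8:64819629-64819928 on the plus strand, the match in capitals begins 74 bases before the start of the gene.
Isl2: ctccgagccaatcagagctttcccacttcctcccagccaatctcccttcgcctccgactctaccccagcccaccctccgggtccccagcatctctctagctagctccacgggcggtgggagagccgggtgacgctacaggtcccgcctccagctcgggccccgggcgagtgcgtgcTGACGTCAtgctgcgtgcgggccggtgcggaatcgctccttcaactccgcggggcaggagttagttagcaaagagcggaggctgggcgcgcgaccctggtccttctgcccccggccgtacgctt
Such a match describes the letters of the window and does not show that a factor binds there. Isl2 had an interval of -0.31 to 0.17 in these samples, and whether Atf3 or Jun acts on it was not tested.

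Pou4f1 (Brn3a) is the POU factor found throughout the sensory lineage, and Pou4f2 (Brn3b) and Pou4f3 (Brn3c) are its paralogs, each present in a part of the neurons. Pou4f1 lies on chromosome 15 from 88615645 to 88622413 on the minus strand. Its level was 8.35, 9.42 and 6.12 FPKM in CCI 1, 2 and 3 and 5.83, 6.70 and 8.52 in Sham 1, 2 and 3. CCI 3 and Sham 1 were low and CCI 2 and Sham 3 high, and the SD within each group (1.68 and 1.38 FPKM) exceeded the distance between the means of 7.97 and 7.02. A log2 fold change of 0.17 ± 0.20 had an interval of -0.32 to 0.65 (edgeR adjusted p = 0.846), the upper end of which corresponds to 1.57 times the Sham level. Over the fits that each left out 1 library it ran from 0.03, without CCI 2, to 0.34, without Sham 3, and was 0.33 without CCI 3.

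The counts of Pou4f1 carry a further limit. An unnamed row on the plus strand, from 88618184 to 88620462, lies wholly within the Pou4f1 row and had 37.1, 31.9 and 37.0 FPKM in CCI 1, 2 and 3 and 35.8, 38.5 and 35.9 in Sham 1, 2 and 3. This was 3.39 to 6.15 times the level of Pou4f1 in the same library, and the groups overlapped (log2 fold change -0.07 ± 0.08, edgeR adjusted p = 0.820). A second row on the plus strand, also named Pou4f1, had a mean of 1.63 FPKM. The library kit marks strand, but whether counting used it is not stated, and reads of Pou4f1 and of these rows cannot be told apart if it did not. With the 3 rows summed, an alternative chosen after seeing the data, the counts were 11637, 10968 and 10000 in CCI and 11130, 11080 and 11799 in Sham. The log2 fold change of this sum was 0.01 ± 0.07 (interval -0.15 to 0.16), a narrower interval than that of the Pou4f1 row alone. Most reads of the sum came from the unnamed row, with 7532 in CCI 1 and 7844 in Sham 1. The Pou4f1 row had 3668 and 2761 in these libraries. The sum therefore mostly describes the unnamed row and is not a closer estimate of Pou4f1.

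Pou4f2, on chromosome 19 from 33160180 to 33163821, had the lowest mean FPKM of the factors. It measured 2.84, 3.25 and 3.32 FPKM in CCI 1, 2 and 3 and 3.25, 3.07 and 3.65 in Sham 1, 2 and 3. CCI 1 was the lowest and Sham 3 the highest, and the remaining 4 libraries lay close together. Between groups the log2 fold change was -0.10 ± 0.11 (interval -0.37 to 0.17, edgeR adjusted p = 0.832), and it was -0.03 without CCI 1, -0.02 without Sham 3 and -0.15 without Sham 2.

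Pou4f3 lies on chromosome 18 from 36713869 to 36716461, and in the ear it is needed for the survival of hair cells. In the DRG it measured 9.73, 9.02 and 8.69 FPKM in CCI 1, 2 and 3 and 9.90, 9.84 and 9.83 in Sham 1, 2 and 3. Every CCI library was below every Sham library, although CCI 1 came close to the lowest Sham value. It was the 1 factor of 9 whose groups did not overlap, while 17.3% of all tested rows did not overlap, 9.73% with CCI higher and 7.56% with CCI lower. The Sham values were nearly equal, with an SD of 0.0408 FPKM beside 0.531 in CCI (n = 3). Even so, its log2 fold change was -0.12 ± 0.07 (interval -0.30 to 0.05), with an adjusted p of 0.625 by edgeR.

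Prdm12, a PR domain zinc finger protein without which nociceptors are not formed, lies on chromosome 3 from 10181924 to 10203161. It measured 3.96, 5.05 and 5.25 FPKM in CCI 1, 2 and 3 and 5.65, 5.97 and 4.53 in Sham 1, 2 and 3. CCI 1 was the lowest library, and CCI 2 and 3 lay between Sham 3 and the other two Sham libraries. Its log2 fold change of -0.20 ± 0.14 had an interval of -0.54 to 0.14 (edgeR adjusted p = 0.706). Leaving out 1 library gave -0.08 without CCI 1, -0.11 without Sham 2 and -0.30 without Sham 3. A row named Prdm12 on the opposite strand had no read in any library.

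Runx1, a Runt domain factor that in the adult DRG is found mainly in nonpeptidergic nociceptors, lies on chromosome 11 from 32765152 to 32858830. Its level was 5.32, 5.64 and 5.04 FPKM in CCI 1, 2 and 3 and 5.19, 5.18 and 5.29 in Sham 1, 2 and 3. All Sham values lay between the lowest and the highest CCI value. A log2 fold change of 0.01 ± 0.06 had the narrowest interval of the 9 factors, -0.14 to 0.17, or 0.908 to 1.12 times the Sham level (edgeR adjusted p = 0.963). It was -0.03 without CCI 2.

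A second row named Runx1 overlaps the first on the same strand and varied far more. Its counts were 541, 506 and 1183 in CCI 1, 2 and 3, and 1378, 471 and 111 in Sham 1, 2 and 3. Sham 1 and CCI 3 were high and Sham 3 was low, without regard to group. A further row of that name, from 32974750 to 32975022, overlaps neither and had 38, 46 and 21 counts in CCI and 30, 39 and 4 in Sham. The sum of the overlapping rows, without this one and chosen after seeing the data, had a log2 fold change of 0.06 ± 0.10 (interval -0.17 to 0.29).

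Runx1 is also transcribed in macrophages and other blood cells. Of 14 macrophage markers 9 were called higher in CCI and 0 lower at the unadjusted limits, where 2.57% of all rows were called higher. The median of the 14 was 0.88 on the log2 scale. At an adjusted p edgeR called 0 of the 14. In other settings only the 9 called genes were counted. Of those, edgeR called 1 among protein-coding rows alone and 1 without CCI 3, and DESeq2 called 9. At the unadjusted limits Spi1 lost its call with limma on log2(FPKM + 1) (0.44), and the other 8 were called under each of the 15 other settings. Their summed level was 171, 155 and 114 FPKM in CCI 1, 2 and 3 and 66.0, 60.3 and 71.9 in Sham 1, 2 and 3. Cd74 was the most abundant, and 0 of the 14 were without reads. The part of these cells in the value of Runx1 was not tested.

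Tlx3, a homeodomain factor of nociceptive neurons, lies on chromosome 10 from 18129408 to 18131562. It measured 8.81, 10.4 and 5.55 FPKM in CCI 1, 2 and 3 and 8.40, 7.74 and 8.68 in Sham 1, 2 and 3. CCI 2 was the highest and CCI 3 the lowest of the 6 libraries, and the Sham libraries lay between them. The log2 fold change of -0.02 ± 0.23 had an interval of -0.576 to 0.543 (edgeR adjusted p = 0.991), the widest of the 9. Its sign was not fixed, since the value was 0.20 without CCI 3, 0.03 without Sham 3 and -0.22 without CCI 2.

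Drgx (Prrxl1), a paired-like homeodomain factor of small sensory neurons, lies on chromosome 16 from 8817220 to 8854079. It was the most abundant factor, with 14.3, 10.8 and 11.7 FPKM in CCI 1, 2 and 3 and 17.4, 12.8 and 13.9 in Sham 1, 2 and 3. CCI 2 and 3 were below every Sham library, but CCI 1 lay above Sham 2 and 3. Its log2 fold change of -0.28 ± 0.15 was the lowest of the 9, with an interval of -0.63 to 0.07 and an adjusted p of 0.58 by edgeR. Without CCI 1 it was -0.41, where the unadjusted p fell under 0.05 and the adjusted p was 0.498, and over the 6 fits that each left out 1 library it ran from -0.41 to -0.15.

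An unnamed row on the minus strand lies within Drgx, with 2.36, 3.30 and 3.31 FPKM in CCI 1, 2 and 3 and 3.16, 3.86 and 4.21 in Sham 1, 2 and 3. CCI 1 was the lowest, and CCI 2 and 3 lay between Sham 1 and Sham 2. Summed with Drgx after seeing the data, it gave a log2 fold change of -0.29 ± 0.11 (interval -0.56 to -0.02) and an adjusted p of 0.438 by edgeR. That sum did not reach the fold limit of 0.58.

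The promoters of Tlx3 and Drgx are shown for a feature that the choice of the factors did not use, the number of homeodomain core letters in them. All of the factors but Runx1 and Prdm12 are homeodomain proteins. TAAT, read on both strands, occurred in 6 of the 10 windows (5 genes) and in 60.6% of all promoters in the table, so its presence is common. It occurred 5 times in the window of Tlx3 (chr10:18296502-18296801, minus strand) and 4 times in that of Drgx (chr16:7860907-7861206, plus strand), where the matches begin 210, 203, 193 and 181 bases before the start. How many of all promoters held as many matches was not counted. Capitals mark TAAT or ATTA.
Tlx3: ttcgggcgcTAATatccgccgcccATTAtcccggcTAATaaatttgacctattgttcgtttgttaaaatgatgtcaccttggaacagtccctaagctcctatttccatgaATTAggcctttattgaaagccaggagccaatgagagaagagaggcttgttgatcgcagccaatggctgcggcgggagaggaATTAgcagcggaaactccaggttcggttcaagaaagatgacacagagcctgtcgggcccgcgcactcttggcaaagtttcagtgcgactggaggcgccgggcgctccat
Drgx: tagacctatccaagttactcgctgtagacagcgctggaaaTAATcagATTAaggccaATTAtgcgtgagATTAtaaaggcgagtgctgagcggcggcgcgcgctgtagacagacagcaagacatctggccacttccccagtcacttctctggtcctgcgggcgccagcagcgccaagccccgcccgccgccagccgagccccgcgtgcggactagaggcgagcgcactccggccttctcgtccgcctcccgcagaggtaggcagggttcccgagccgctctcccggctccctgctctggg
The windows of Isl1 and Runx1 and both windows of Prdm12 held 1 to 3 matches, and the windows of Isl2 and of the POU factors held 0. Whether any of these letters is bound in the DRG was not measured.

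**Figure D2:**
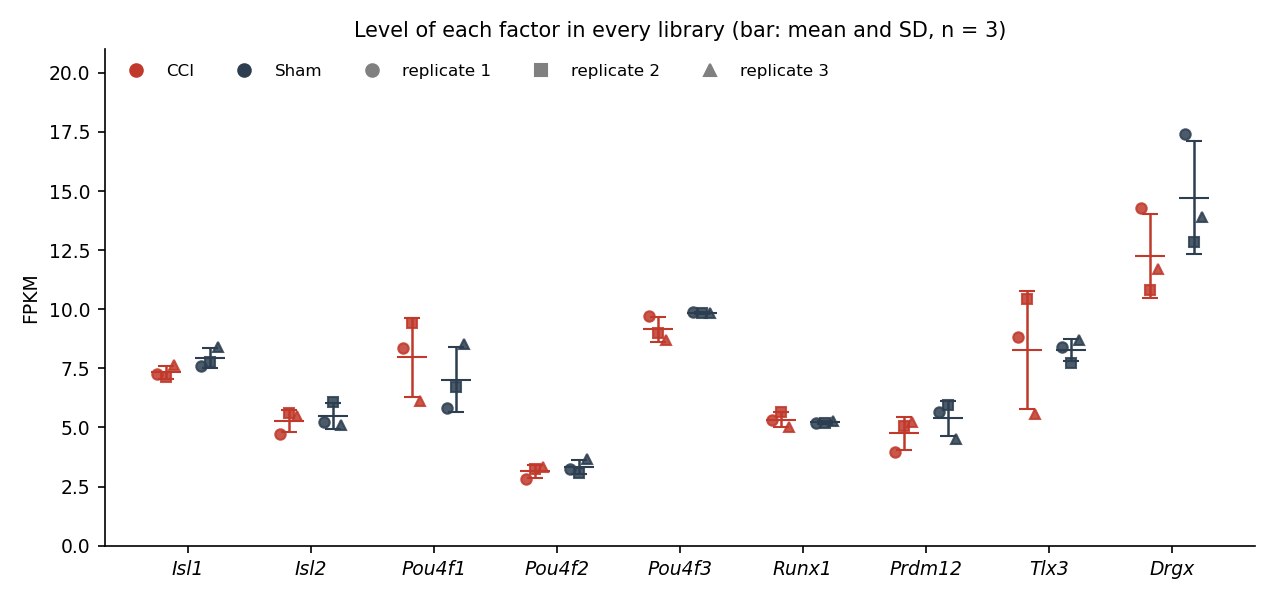
FPKM of each factor (vertical axis, linear) in the 3 CCI (red) and 3 Sham (blue) libraries, with replicate number by symbol, and the mean and SD of each group as bars. The groups are separate for Pou4f3 and overlap for the other 8 factors.

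By FPKM, the factors fell into steps. This order rests on the length of each row, which as implied by its counts ran from 0.961 kb for Tlx3 to 9.33 kb for Prdm12. By reads, summed over the 6 libraries, Tlx3 was lowest with 3900, below Pou4f2 with 5560. Drgx, with a mean of 13.5 FPKM over the 6 libraries, exceeded the next factor in 6 of 6 libraries. Pou4f3 (9.50), Tlx3 (8.27), Isl1 (7.63) and Pou4f1 (7.49) followed, and neighbours among them changed places between libraries: Pou4f3 exceeded Tlx3 in 5 of 6, Tlx3 exceeded Isl1 in 4 of 6 and Isl1 exceeded Pou4f1 in 3 of 6. Pou4f1 exceeded Isl2 in 6 of 6 libraries, although their ranges met between 5.83 and 6.10 FPKM.

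Isl2 (5.38), Runx1 (5.28) and Prdm12 (5.07) could not be put in order, since each exceeded the next in 3 of 6 libraries. Pou4f2 (3.23) was below Prdm12 in 6 of 6. By group means, Drgx, Pou4f3 and Tlx3 led in this order and Pou4f2 was last in both CCI and Sham.

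Ratios of paralogs within a library do not depend on how libraries are scaled. The ratio of Isl2 to Isl1 in FPKM was 0.653, 0.789 and 0.719 in CCI 1, 2 and 3 and 0.686, 0.785 and 0.609 in Sham 1, 2 and 3. The groups overlapped, with a difference of 0.06 on the log2 scale and SDs of 0.14 in CCI and 0.18 in Sham. The sign was not fixed, as the difference was -0.01 without CCI 2, -0.03 without Sham 3 and 0.15 without Sham 2. The two-sided exact permutation p was 0.70 (adjusted over 3 ratios, 0.70), where 3 against 3 samples cannot give less than 0.10.

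The ratio of Pou4f2 to Pou4f1 was 0.340, 0.345 and 0.543 in CCI 1, 2 and 3 and 0.558, 0.459 and 0.428 in Sham 1, 2 and 3. The ratio of Pou4f3 to Pou4f1 was 1.16, 0.957 and 1.42 in CCI and 1.70, 1.47 and 1.15 in Sham, in the same order. In both ratios CCI 1 and 2 lay near or below the lowest Sham value, CCI 3 lay among the Sham values, and Pou4f1 itself was high in CCI 1 and 2. The log2 differences of -0.26 and -0.29 each had an exact permutation p of 0.30 (adjusted, 0.45), and they share Pou4f1 as denominator. Leaving out 1 library moved the first from -0.14, without CCI 1, to -0.48, without CCI 3, and the second from -0.15, without CCI 2, to -0.44, without Sham 3. Without Sham 1 they were -0.15 and -0.16, and without CCI 2 the first was -0.16 and without CCI 3 the second was -0.43.

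The factors differed in how far replicates scattered. The SD of log2 CPM (counts scaled to the library total) within groups had a median of 0.14 for the factors and 0.22 for all tested rows, and 7 of 9 factors were below the median of all rows. All tested rows include many of lower level and were not matched to the factors. Runx1 (0.06), Pou4f3 (0.06) and Isl1 (0.07) were the most even, and at least 89.9% of tested rows scattered more than each of these. Tlx3 (0.34) and Pou4f1 (0.31) scattered most. In these last factors CCI 3 was low and CCI 2 high, whereas Isl1 and Pou4f2 were highest of their group in CCI 3.

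**Figure D3:**
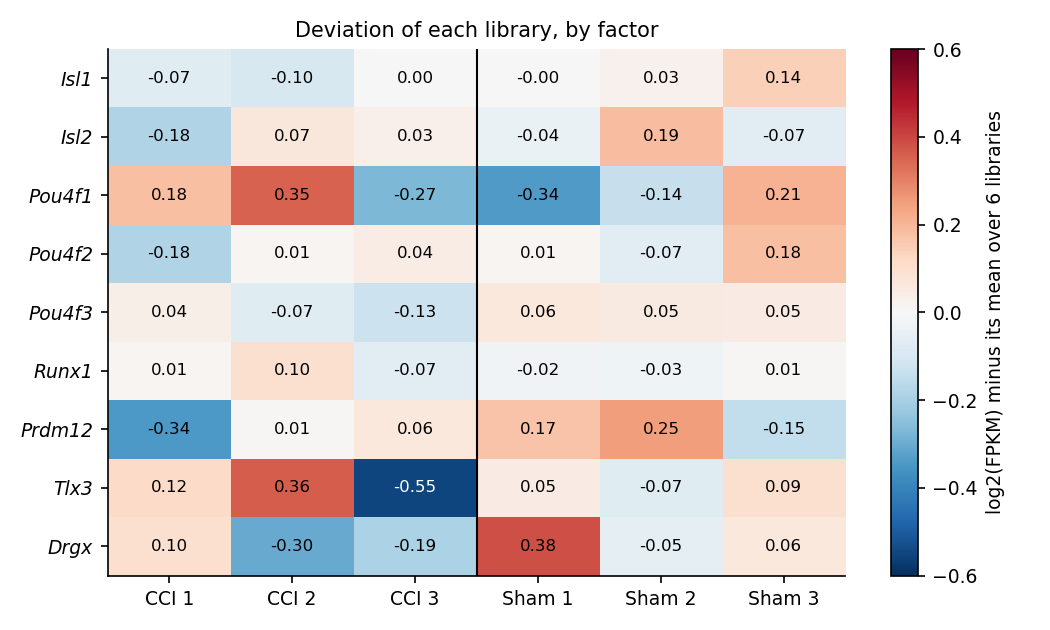
Log2 FPKM of each factor (rows) in each library (columns), minus the mean of that factor over the 6 libraries, as color and printed value. CCI 3 stands low for Tlx3 and Pou4f1, and no library is high or low in every factor.

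Summed over the 9 factors, the level was 65.3, 66.4 and 58.8 FPKM in CCI 1, 2 and 3 and 68.5, 65.2 and 68.0 in Sham 1, 2 and 3. CCI 3 was lowest, while CCI 1 and 2 lay at or above Sham 2. The geometric mean over 14 pan-neuronal genes in the same libraries was 85.7, 89.0 and 87.5 FPKM in CCI and 81.7, 89.2 and 84.9 in Sham, so the groups overlapped in this mean. The summed level of these genes, led by Tubb3, was 4243, 4172 and 4149 FPKM in CCI and 3485, 4040 and 3826 in Sham, where every CCI library was above every Sham library. Of the 14 genes 0 were called, but 4 had an unadjusted p under 0.05 (10.7% of all rows did), 2 above and 2 below 0. The median log2 fold change of 0.03 thus stood between -0.39 for Snap25 and 0.31 for Tubb3, named as the lowest and the highest. The part of either measure in the values of the factors was not tested beyond the scaling given next. When libraries were scaled to 10 of those genes in place of all rows, 0 of 9 factors were called, and the log2 fold change of Tlx3 moved from -0.02 to 0.00, just above 0.

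Other genes with nearly the same profile over the 6 libraries were found for each factor, by the root mean square difference of centred log2 CPM among 13097 protein-coding genes. The nearest to Isl1 was Abcb9 (0.02 log2 units), to Isl2 Rit2 (0.02), to Pou4f2 Cdk5r2 (0.01), to Pou4f3 Ibtk (0.02) and to Runx1 Slc35a2 (0.02). The nearest to Prdm12 was Rbks (0.04), to Drgx Gins1 (0.07), to Pou4f1 Fgd3 (0.07) and to Tlx3 the unnamed locus LOC103689971 (0.08). None of the 3 nearest genes of any factor was another of the 9. With so many genes and only 6 libraries, a close profile is easily met.

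The cofactors of these proteins were likewise measured. LIM homeodomain factors act through Ldb proteins, for which LIM-only (Lmo) proteins compete, Runx1 binds DNA together with Cbfb, and Tle proteins are corepressors. Of 18 such partners 18 were tested and 0 were called, and their median log2 fold change was 0.06, while 5 had an unadjusted p under 0.05, 2 above and 3 below 0, beside 10.7% of all rows. Named after their values were seen, Tle3 had 0.35 ± 0.12, Ewsr1 0.20 ± 0.08, Tle4 -0.27 ± 0.08 and Ssbp2 -0.17 ± 0.06. Cbfb was 31.8 ± 0.97 FPKM in CCI and 35.2 ± 0.82 in Sham (SD, n = 3), with groups that did not overlap, a log2 fold change of -0.16 ± 0.05 and an adjusted edgeR p of 0.339. Ssbp3, which stabilises Ldb complexes, was the most abundant at 39.6 ± 1.01 and 38.6 ± 1.03 FPKM.

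Of 9 genes that depend on Runx1 in nociceptors 0 were called, and the median log2 fold change was 0.01. Small differences in both directions lay behind this median, since 5 of the 9 had an unadjusted p under 0.05 and groups that did not overlap, 2 above and 3 below 0, where 10.7% of all rows had such a p. P2rx3, an ATP-gated channel, was 90.2 ± 2.97 FPKM in CCI and 79.6 ± 1.75 in Sham, with a log2 fold change of 0.16 ± 0.05. For Trpa1, an irritant receptor, the value was 0.35 ± 0.08 (edgeR adjusted p = 0.222), for Ret 0.11 ± 0.11 and for the sodium channel Scn11a -0.15 ± 0.06. The receptors Mrgprd and Trpv1, named after their values were seen, had -0.20 ± 0.06 and -0.19 ± 0.05 (edgeR adjusted p = 0.323 and 0.281). Over the list 5 fold changes were above and 4 below 0.

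Among 7 genes of peptidergic nociceptors 1 was called, beside 3.83% of all rows. Of the 7, 3 had an unadjusted p under 0.05 (10.7% of all rows did), 2 above and 1 below 0. Adcyap1, the precursor of the neuropeptide PACAP, measured 48.7, 39.4 and 30.7 FPKM in CCI 1, 2 and 3 and 17.2, 19.0 and 18.7 in Sham. The groups were well apart, with a log2 fold change of 1.10 ± 0.17 (unadjusted call, edgeR adjusted p = 0.103). Calca, the most abundant of the list, had -0.15 ± 0.06 and was not called.

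Of 10 genes of large sensory neurons 2 were called, beside 3.83% of all rows. They were Pvalb lower and Calb1 higher, both encoding calcium-binding proteins. Of the 10, 8 had a log2 fold change below 0 (median -0.25). An unadjusted p under 0.05 was held by 6 of the 10, 1 above and 5 below 0, beside 10.7% of all rows. Pvalb, a marker of proprioceptors, was 60.5, 74.4 and 70.1 FPKM in CCI 1, 2 and 3 and 129, 94.8 and 104 in Sham. CCI lay below Sham throughout, with a log2 fold change of -0.69 ± 0.13 (edgeR adjusted p = 0.144) that shrank to -0.57, short of the fold limit, without Sham 1. Calb1 (0.70 ± 0.23) lost its call without CCI 1 (0.60), CCI 2 (0.55), Sham 1 (0.66) or Sham 3 (0.67), and with limma on log2(FPKM + 1) (0.51). Nefh, the heavy neurofilament, was 570 ± 51.1 FPKM in CCI and 822 ± 41.8 in Sham, and its log2 fold change of -0.54 ± 0.08 fell short of the limit.

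Other transcription factors of sensory neurons were taken from a list of 28, of which 27 were in the table and 22 were tested. Of these, 2 were called higher in CCI and 2 lower (2.57% and 1.26% of all rows were), and the median was -0.12. At an adjusted p edgeR called 0 of the 22. DESeq2 was counted over the 4 genes called here alone and called 1 of them, Klf7 (DESeq2 adjusted p = 0.000389). An unadjusted p under 0.05 at any size was held by 8 of the 22, 2 above and 6 below 0, beside 10.7% of all rows, and the groups did not overlap for 11, beside 17.3%. Among those below 0, Six4 (-0.42 ± 0.08, edgeR adjusted p = 0.151) and Shox2 (-0.36 ± 0.10, edgeR adjusted p = 0.289), named after their values were seen, fell short of the fold limit. Hmx1 was 0.781 ± 0.114 FPKM in CCI and 0.398 ± 0.060 in Sham, a log2 fold change of 0.94 ± 0.29 that was no longer called without CCI 1 (0.81, its unadjusted p then above 0.05) or with limma on log2(FPKM + 0.1) (0.82) or log2(FPKM + 1) (0.35). Klf7, on a row joined with a neighbouring gene, had 0.60 ± 0.11 and fell under the limit without CCI 1 (0.53) or Sham 1 (0.49) and with limma on log2(FPKM + 1) (0.51).

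Mafa, a factor of mechanoreceptors, measured 0.52, 1.23 and 1.07 FPKM in CCI 1, 2 and 3 and 1.94, 1.93 and 1.80 in Sham. CCI was below Sham in each library, and the log2 fold change of -1.02 ± 0.33 (edgeR adjusted p = 0.347) stayed called under each of the 15 other settings of the fit, though at -0.60, just past the limit, with limma on log2(FPKM + 1). Onecut1 had -0.59 ± 0.17 and fell short of the limit without CCI 1 (-0.49) or Sham 3 (-0.46), and also with library sizes set by neuronal genes (-0.57) and with limma (-0.55 with 0.1 added to FPKM, -0.40 with 1 added). Etv1, a regulator of proprioceptors and the most abundant of the list, was 17.0 ± 1.09 FPKM in CCI and 22.0 ± 1.07 in Sham. Its groups did not overlap, and its log2 fold change of -0.39 ± 0.07 did not reach the fold limit (edgeR adjusted p = 0.114).

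Against these stand genes known to be induced in injured sensory neurons. Of 16 such genes 14 were called higher, beside 2.57% of all rows, and 6 of them also at an adjusted p. The median log2 fold change was 2.72. These adjusted calls were not stable over the 14 called genes, the only ones counted in other settings. Of them, 0 had one with the replicate block or without Sham 1, and 1 had one without CCI 2. The number was 1 without Sham 2, 3 without Sham 3 and 4 by limma on log2(FPKM + 1). More of these 14 had an adjusted call by DESeq2 (14), among protein-coding rows alone (8), without CCI 1 (8) and without CCI 3 (8). Earlier results of these data were known when this list was made, so its direction is not independent evidence. Atf3 measured 34.9, 20.3 and 16.2 FPKM in CCI 1, 2 and 3 and 1.89, 2.36 and 2.11 in Sham 1, 2 and 3. CCI 1 was the highest and CCI 3 the lowest of the injured ganglia, all far above Sham, with a log2 fold change of 3.47 ± 0.31 (edgeR adjusted p = 0.0296). Its fold change lay between 2.92 and 3.68 over the 15 other settings, while its adjusted p rose to 0.194 with the replicate block. Jun was 49.4, 39.4 and 35.4 FPKM in CCI and 19.5, 19.7 and 19.8 in Sham, a log2 fold change of 1.06 ± 0.12. By edgeR it was called at the unadjusted limits only (adjusted p = 0.0712), while DESeq2 called it at an adjusted p as well (DESeq2 adjusted p = 7.8e-12). The list summed to 579, 384 and 341 FPKM in CCI 1, 2 and 3 and to 118, 120 and 119 in Sham, with Gap43 the most abundant, so CCI 1 stood highest, whereas in Pou4f1 and Tlx3 CCI 2 was highest.

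**Figure D4:**
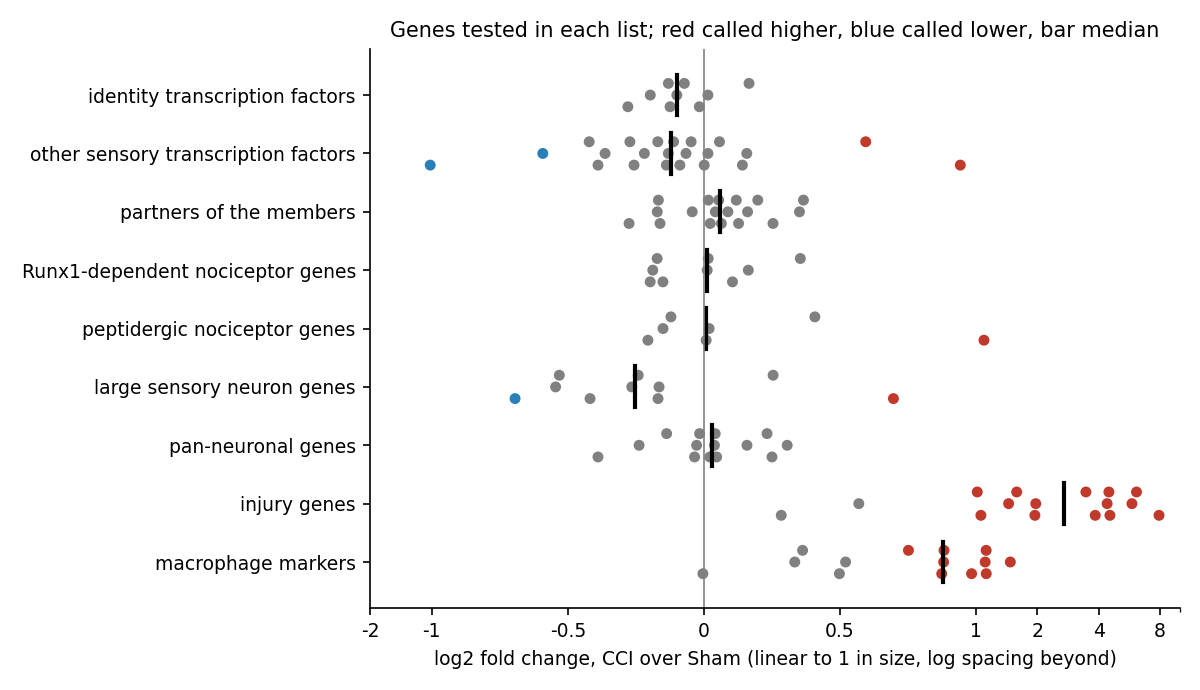
Log2 fold change in CCI over Sham (horizontal axis, linear up to 1 in size and logarithmic beyond) of the tested genes of 9 lists. Each point is a gene, red if called higher and blue if called lower at the unadjusted limits, grey if not called, and the black bars are medians. The identity factors lie near 0, as do the medians of the partners (0.06), Runx1-dependent (0.01), peptidergic (0.01) and pan-neuronal genes (0.03). Red are 14 of 16 injury genes and 9 of 14 macrophage markers, beside 2.57% of all rows. The lists were chosen with earlier results of these data known.

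Markers of the other cells in the ganglion were compared in the same way, since a change in their share would move the level of neuronal transcripts. Of 5 satellite glia, 8 Schwann cell, 4 tested endothelial and 5 tested fibroblast markers 0 were called in either direction. The summed level of the Schwann cell list is not given. The satellite glia list, led by Glul, summed to 106, 108 and 93.7 FPKM in CCI 1, 2 and 3 and 111, 99.3 and 109 in Sham.

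Fibroblast markers, led by Apod, summed to 550, 875 and 798 FPKM in CCI 1, 2 and 3 and 726, 753 and 672 in Sham, and endothelial markers, led by Cdh5, to 13.8, 18.8 and 17.3 and to 20.6, 15.8 and 17.0. Both lists overlapped between groups. Cldn5 of the endothelial list had no read in any library.

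Among blood cells, 1 of 6 T cell markers was tested and called higher, Cd4 (0.68 ± 0.14), which rat macrophages also carry, while Cd3e, Cd3d, Cd3g, Cd8a and Lck were under the filter. The T cell list summed to 10.1, 10.3 and 7.64 FPKM in CCI 1, 2 and 3 and 6.07, 5.85 and 6.11 in Sham. B cell markers had 0 of 4 genes past the filter, and of neutrophil, mast cell and platelet markers 2, 1 and 1 were tested and 0 called. Of 7 spinal cord markers 2 were tested and 0 called, and Pax2 and Slc32a1 had no read.

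Skeletal muscle markers moved with single libraries. Of 6 tested 5 were called lower in CCI, beside 1.26% of all rows. The summed level of the list, led by Acta1, was 7.68, 4.27 and 3.82 FPKM in CCI 1, 2 and 3 and 124, 4.53 and 17.7 in Sham 1, 2 and 3. Sham 1 was far above the rest and Sham 3 next, while Sham 2 lay within the range of CCI. At an adjusted p edgeR kept 0 of the 5 calls and DESeq2 kept 1, Tnni2 (DESeq2 adjusted p = 0.00567). Without Sham 1, 4 of the 5 unadjusted calls were lost and the log2 fold change of Acta1 shrank from -2.78 to -0.80. Without CCI 2 or CCI 3 the same 4 were lost at fold changes close to those reported (Acta1 -2.64 and -2.66). Without CCI 1, 2 were lost although their fold changes were larger (Acta1 -3.09, Actn3 -3.35 in place of -2.84). With the replicate block 2 were lost (Acta1 -1.79), and with limma all 5 (Acta1 -1.74 with 0.1 and -1.58 with 1 added to FPKM). Drgx, Pvalb and the sum of the neutrophil markers were also highest in Sham 1. Without Sham 1 the log2 fold changes of Drgx and Pvalb were -0.15 and -0.57. The part of muscle or neutrophil RNA in either gene was not tested.

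Genes beside the factors on the chromosomes were examined by the same test. Of 31 rows within 50 kb of one of the 9 rows, 25 were tested and 0 called, and 5 overlapped a factor. On chromosome 8 Etfa, which lies beside Isl2, had a log2 fold change of -0.25 ± 0.10 (edgeR adjusted p = 0.423). Next to Tlx3, Ranbp17 had 0.21 ± 0.07 (edgeR adjusted p = 0.385) and Npm1 0.10 ± 0.09. These 3 were picked from the 25 after their values were seen.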

How the data were processed

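The authors mapped clean reads with HISAT2 to the rat genome they call V101 and assembled transcripts with StringTie 1.3.0. The authors deposited a raw count of reads for each gene row and library. The FPKM values are those of the authors, who estimated expression with StringTie and edgeR, and a count of 0 is listed at a small constant. Rows without a symbol held 5.37% to 5.72% of counts and were kept.

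Rows whose FPKM averaged 0.5 or more were tested on their counts with edgeR 4.0.16 (TMM factors, quasi-likelihood test, trended prior), which was checked on simulated counts. SEs were derived from the fold change and its F statistic. Adjusted p-values cover all 26663 rows. DESeq2 1.42.0, limma 3.58.1, another scaling, other filters, a replicate block and leaving out each library were alternatives. Paralog ratios were tested by exact permutation with scipy 1.17.1. The factors and the gene lists were chosen with earlier results of these data known. All factors were named. Of each list, called genes and up to 4 others with the highest mean FPKM could be named. Any other gene of a list was named after its value was seen, as were markers without reads and the T cell markers under the filter. Promoters came from RefSeq (GRCr8).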

Additional observations from a re-analysis of the deposited data

How the results depend on the processing

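The counts of 0 identity factors called, unadjusted and adjusted, were the same under each of the 15 other settings of the fit. Of 138 refitted fold changes of single factors, 133 had the direction reported and 5 had the other. Over the fits that left out each library in turn, Isl2 ran from -0.12 to 0.015 (without Sham 2), Runx1 from -0.026 (without CCI 2) to 0.057, and Tlx3 from -0.22 to 0.20 (without CCI 3), with 0.026 without Sham 3. Tlx3 was at 0.0028 with library sizes set by 10 pan-neuronal genes. The difference in the log2 ratio of Isl2 to Isl1 ran from -0.032 to 0.15 over the fits without 1 library, so its sign was not fixed. The cause of these reversals was not tested.

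Over all rows at the unadjusted limits, 410 were higher and 161 lower by limma with 1 added to FPKM, and protein-coding rows alone, with fewer rows tested, 353 and 115. At an adjusted p, where 17 were higher and 8 lower, DESeq2 called 432 and 319, protein-coding rows alone 41 and 35, and limma on log2(FPKM + 0.1) 5 lower. Without 1 library the adjusted calls ranged from 3 to 40 higher and from 3 to 21 lower. The cause was not tested beyond the fewer rows or samples.

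Over all tested rows, same-numbered libraries did not deviate together (correlations -0.01, -0.02 and -0.05), and no library correlated above 0.1 with its own number. Whether the replicate numbers pair the samples for some genes was not tested. With the replicate block 0 rows were called higher and 0 lower at an adjusted p, and 617 higher and 318 lower at the unadjusted limits. In that fit Drgx had -0.28 with an unadjusted edgeR p of 0.0059 and an adjusted p of 0.371, the lowest adjusted p of any factor in any setting. With 3 rats a group, changes of the factors smaller than the intervals given cannot be told from 0.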
